A study of Mus musculus with 270 samples.

Results

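The liver libraries of the 2 oldest ages in a mouse ageing series were compared: 5 male C57BL/6J mice of 26 months (M) against 7 of 20 M. Members were all libraries of the liver table labelled with these ages, 12 of its 45 libraries and of 270 libraries in the whole series, in which every mouse also gave kidney, lung, heart, skeletal muscle and testis. The mice were males of 1 inbred strain and 1 cohort, the labels name no treatment or genetic change at either age, and the groups differ by label in age alone. RNA came from pulverized whole tissue, libraries were amplified by PCR without molecular identifiers, and values are DESeq2-normalized read counts per gene, here called normalized counts. The libraries held 7095118 to 15849909 reads on genes at 20 M and 7392448 to 14329569 at 26 M. In whole tissue, fewer cells of a type and less RNA per cell cannot be told apart.

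The liver is made up largely of hepatocytes, which secrete albumin (Alb), apolipoproteins such as Apoa1 and transport proteins such as transthyretin (Ttr) into the blood, and which carry out glucose, lipid, bile acid and drug metabolism. Between the hepatocytes lie Kupffer cells, the resident macrophages, and sinusoidal endothelial, stellate and bile duct cells. In ageing rodent livers, inflammatory cell infiltration and altered lipid handling are commonly described, and the cyclin-dependent kinase inhibitors Cdkn1a and Cdkn2a are widely used markers of senescent cells. Kap, a kidney androgen-regulated gene of proximal tubules, and Snap25, a synaptic vesicle fusion protein of neurons, are not hepatocyte genes and served as markers of RNA from kidney and brain.

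The hepatocyte markers were detected in each of the 12 libraries, but the share of reads on hepatocyte genes differed more between mice of 1 age than between ages. A list of 20 hepatocyte identity genes took 1.03% (c3054), 1.68% (c1300), 2.32% (c1312), 4.14% (c2140), 4.78% (c3580), 10.1% (c3055) and 15.2% (c1315) of the reads on genes at 20 M. At 26 M the list took 0.801% (c3668), 1.80% (c3667), 3.13% (c3775), 6.81% (c620) and 13.2% (c2293). Both ages thus held libraries with a low and with a high share of this list, and the groups overlapped over nearly their whole range. Other hepatocyte genes did not all follow this share. A list for bile acid synthesis and transport took 1.35% in c1300 and 1.30% in c1312, against 0.993% in c1315, 0.468% in c3054 and 0.249% in c3668. Below, libraries called rich in hepatocyte RNA are those with a high share of the list of 20 genes.

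A list of 20 kidney tubule genes took 0.00693% to 1.48% of the reads at 20 M and 0.00465% to 1.29% at 26 M, and a list of 18 brain genes 0.00893% to 0.438% and 0.00845% to 1.24%. In 3 libraries the sum of both lists was above the share of the hepatocyte list: 1.92% in c3054 (20 M), 1.81% in c3667 and 1.88% in c3668 (both 26 M). In share of reads, which was not corrected for transcript length, these 3 libraries go against a description of the group as mostly hepatocyte RNA, and the main results are therefore also given for the 9 other libraries (6 of 20 M and 3 of 26 M). Of the kidney list 18 of 20 genes and of the brain list 17 of 18 passed the filter on low values. Slc22a12 of the kidney list, the astrocyte gene Gfap of the brain list and Trf (transferrin) of the hepatocyte list are listed at 0 in all 12 libraries.

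**Figure D1:**
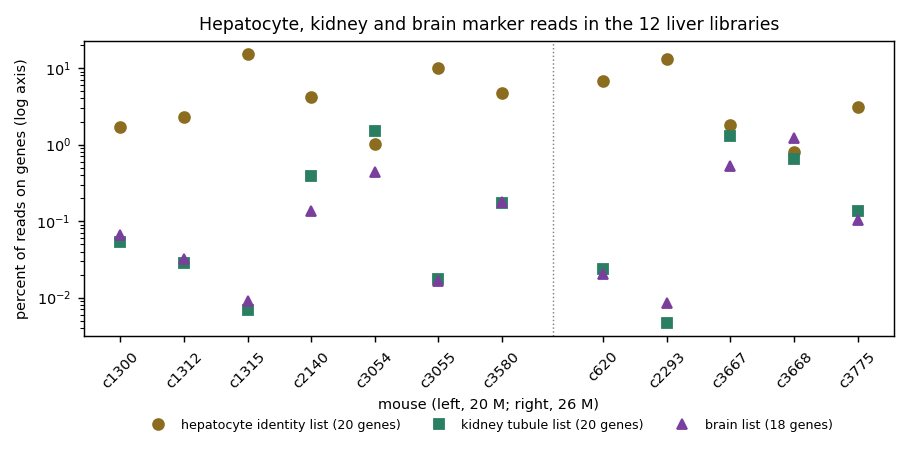
Percent of the reads on genes (log axis) that fell on the hepatocyte identity list (circles), the kidney tubule list (squares) and the brain list (triangles) in each of the 12 liver libraries, 7 of 20 M left of the dotted line and 5 of 26 M right of it. The hepatocyte list runs from 0.801% to 15.2%, and in c3054, c3667 and c3668 the kidney and brain points lie at or near the hepatocyte point.

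Kap normalized counts (chromosome 6, 133849855 to 133853667, GRCm38) were 248 at the lowest, 1529 at the median and 31356 at the highest of the 7 libraries of 20 M. At 26 M they were 624 (c620), 130 (c2293), 29208 (c3667), 13867 (c3668) and 3838 (c3775). High and low libraries occurred at both ages, and the groups overlapped throughout. The log2 difference, 26 M minus 20 M, was 0.25 (exact permutation test, two-sided, 792 arrangements, p = 0.879), and without the 3 libraries it was -1.07 (exact permutation test, p = 0.476). Kap is in the kidney list by which the 3 libraries were chosen, so the value without them follows in part from the choice.

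In rpm, a gene's reads scaled to 1000000 reads on genes in each library, Kap in the 12 liver libraries came to between 0.191% (c2293) and 83.1% (c3054) of its median of 7489 in the kidney libraries of the same 12 mice. It stood at 74.5% in c3667, 35.5% in c3668, 21.1% in c2140, 8.55% in c3580 and 7.85% in c3775, and at 2.79% or less in the 6 others. In c2140, Kap was 1579 rpm in the liver library and 1305 in the kidney library of the same mouse, and in c3054 the values were 6223 and 3990. Kap in the kidney libraries themselves ranged widely, from 1026 rpm in c3580 to 11224 in c620.

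Snap25 normalized counts (chromosome 2, 136713439 to 136782428) were 73.9 at the lowest, 677 at the median and 3918 at the highest at 20 M. At 26 M they were 129 (c620), 45.6 (c2293), 4858 (c3667), 12944 (c3668) and 1220 (c3775). The 7 libraries with the least Kap stood in the same order for Snap25, whereas among the 5 others c3580 held more Snap25 and less Kap than c2140, and c3668 had the most Snap25 and c3054 the most Kap. The log2 difference was 0.56 (exact permutation test, two-sided, p = 0.732), and -1.13 without the 3 libraries (exact permutation test, p = 0.476). As with Kap, the value without the 3 libraries follows in part from their choice, since Snap25 is in the brain list.

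Alb normalized counts (chromosome 5, 90460870 to 90476602) were 9405 at the lowest, 65916 at the median and 688573 at the highest at 20 M. At 26 M they were 165920 (c620), 555806 (c2293), 19982 (c3667), 9456 (c3668) and 49194 (c3775). The 2 ages spanned almost the same range, with the richest library at 20 M and the lowest values shared by c3054 and c3668. The log2 difference was -0.39 ± 1.47 (SE, limma adjusted p = 0.994), with a 95% interval from -3.52 to 2.75, and it was 0.54 ± 1.53 in the 9 libraries.

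Apoa1, the main protein of high-density lipoprotein, was 38997 at the median at 20 M (4514 to 190266). At 26 M it was 120472 (c620), 140016 (c2293), 11163 (c3667), 5653 (c3668) and 31018 (c3775). For Apoa1 the log2 difference was -0.28 ± 1.19 (SE), and 0.54 ± 1.17 in the 9 libraries. Ttr showed the same order of libraries at 26 M, with 24008 (c620), 64854 (c2293), 6766 (c3667), 3350 (c3668) and 18033 (c3775), against a median of 13936 at 20 M (2505 to 64318). For Ttr the log2 difference was -0.10 ± 0.94, and 0.53 ± 0.90 in the 9 libraries. For Alb, Apoa1 and Ttr the sign of the difference thus depended on the 3 libraries, and none of these differences was larger than its SE. These genes are in the hepatocyte list, whose low reads were part of the rule by which the libraries were chosen.

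**Figure D2:**
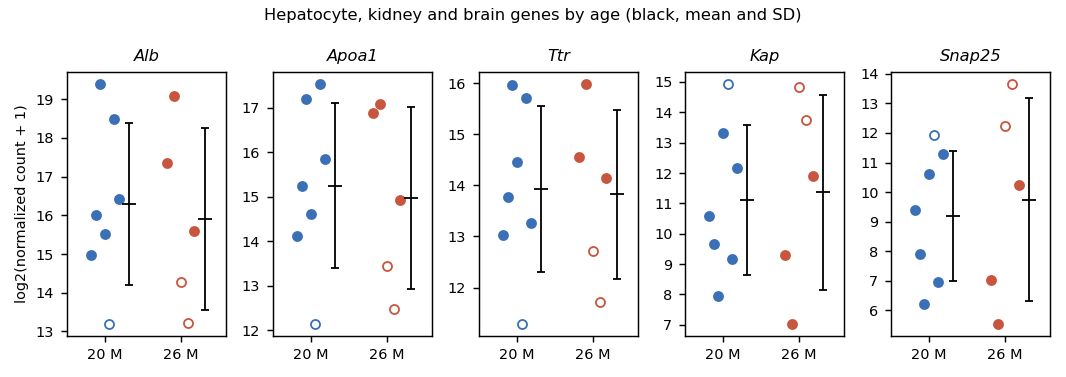
Values of 3 hepatocyte genes, the kidney gene Kap and the brain gene Snap25, as log2(normalized count + 1), by age, with 1 point per mouse (7 of 20 M, 5 of 26 M) and the mean with SD in black. Open points are the 3 libraries in which kidney and brain markers took more reads than hepatocyte markers, which lie at the bottom for the hepatocyte genes and at the top for Kap and Snap25 at both ages.

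The libraries did not group by age. Over 14511 genes the correlation of log2 values between libraries had a median of 0.745 within an age (31 pairs) and 0.759 between ages (35 pairs), a description with no test. For 9 of the 12 libraries the most similar library was one of the other age. The closest pairs were c1315 (20 M) with c2293 (26 M), at 0.972, and c3054 (20 M) with c3667 (26 M), at 0.967. The first principal component held 40.9% of the variance and ran from the hepatocyte-rich libraries c2293, c3055 and c1315 (scores of -109, -109 and -101) to c3054, c3667 and c3668 (120, 125 and 166).

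The second component held 19.2% and set c1300 and c1312 (scores of -113 and -111) against c1315 and c2293 (99.0 and 90.9), all of which had little kidney or brain RNA. In c1300 and c1312 the nuclear long non-coding RNA Malat1 took 4.32% and 3.25% of the reads, against 0.312% to 2.00% in the other 10 libraries. These 2 libraries also had the lowest shares of reads on genes whose longest transcript is under 1000 nt, 1.75% and 2.00%, against 2.56% to 5.37% in the others. Both are of 20 M, so these shares moved in part with age, and their cause was not tested. The highest short-transcript shares were those of c2293, c3055 and c1315 (5.37%, 5.31% and 4.57%), the libraries richest in hepatocyte RNA. With the short-transcript share as a covariate limma called 0 genes (155 at an unadjusted p of at most 0.05).

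**Figure D3:**
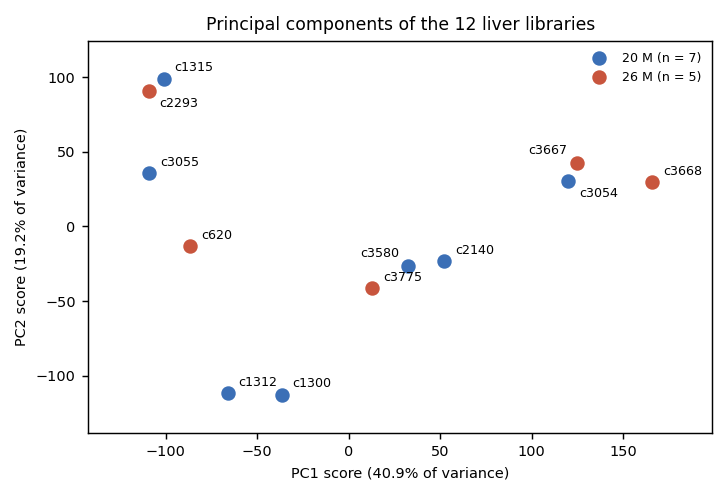
Scores of the 12 liver libraries on the first and second principal components of log2(normalized count + 1) over 14511 genes, with mice of 20 M in blue and of 26 M in red. The ages do not separate, and libraries of different ages lie side by side at each end of the first component.

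No gene passed the test between 26 and 20 M. The filter on low values, a normalized count of 10 or more in 5 or more libraries, kept 14511 genes, of which 0 had a limma adjusted p of at most 0.05 (0%), and the smallest adjusted p was 0.994. At an unadjusted p of at most 0.05 there were 142 genes (0.979%), 78 higher (0.538%) and 64 lower (0.441%) at 26 M. The share of 0.979% is below the 0.05 that such a threshold passes on average where no gene differs. List shares set beside these values below are descriptions and not tests of a list. The edgeR quasi-likelihood test and the DESeq2 Wald test on the recovered reads also called 0 genes, with 120 and 257 genes at an unadjusted p of at most 0.05. Without the 3 libraries limma again called 0, with 101 genes at an unadjusted p of at most 0.05, of which 36 were among the 142. The median log2 difference of all genes was 0.12, with quartiles of -0.27 and 0.49, and the median SE of a difference was 0.60.

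The genes with the smallest p-values are described here by their values, with no claim of a change. G6pc2, a glucose-6-phosphatase subunit best known from pancreatic islets, ranked first (chromosome 2, 69211073 to 69227993). Its normalized counts were 28.6 at the lowest, 45.5 at the median and 104 at the highest at 20 M. At 26 M they were 16.9 (c620), 10.1 (c2293), 4.57 (c3667), 4.38 (c3668) and 30.9 (c3775). All but c3775 lay below the 20 M libraries, so that the groups overlapped through 1 mouse. The log2 difference was -2.16 ± 0.62 (SE, 95% interval -3.47 to -0.85, limma adjusted p = 0.994), and -1.59 ± 0.71 without the 3 libraries.

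In 6 genes (0.0413% of those tested) the values of the 2 ages did not overlap, 3 higher (0.0207%) and 3 lower (0.0207%) at 26 M. With ages assigned at random, 1 of 792 arrangements gives no overlap in each direction for a gene without ties. That share, 0.00126, is above those found. Kifc3, a minus-end-directed kinesin motor, was second by p (chromosome 8, 95099828 to 95202826). Its normalized counts were 127 at the lowest, 189 at the median and 588 at the highest at 20 M, against 113 (c620), 101 (c2293), 83.6 (c3667), 68.9 (c3668) and 72.4 (c3775) at 26 M. The highest values were those of c1312 and c1300, the 2 libraries with most Malat1, but every other library of 20 M was above those of 26 M as well. The log2 difference was -1.40 ± 0.42 (limma adjusted p = 0.994), and -1.37 ± 0.54 without the 3 libraries.

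Cyp2j9, a cytochrome P450 of the arachidonate epoxygenase family, had normalized counts of 131, 182 and 496 at the lowest, median and highest at 20 M (chromosome 4, 96568424 to 96592523). At 26 M they were 106 (c620), 94.4 (c2293), 119 (c3667), 86.9 (c3668) and 77.7 (c3775), all below 20 M, with a log2 difference of -1.07 ± 0.37 and of -1.23 ± 0.49 without the 3 libraries. The other gene lower at 26 M without overlap was Mtmr11, a myotubularin-related protein, named after its values were seen. Its counts were 33.2 to 146 at 20 M and 19.5 to 32.7 at 26 M, a log2 difference of -1.15.

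Clec4b1, a C-type lectin receptor of myeloid cells, was 0 at the lowest, 4.14 at the median and 8.68 at the highest at 20 M. At 26 M it was 38.4 (c620), 11.4 (c2293), 15.1 (c3667), 14.3 (c3668) and 23.8 (c3775), all above 20 M but low in absolute number. For Clec4b1 the log2 difference was 2.11 ± 0.75 (limma adjusted p = 0.994), and 2.52 ± 1.03 without the 3 libraries. Capn6, a calpain family member without protease activity, was 0 to 11.8 at 20 M and 12.4 to 27.1 at 26 M, and the transporter gene Mfsd10, named after its values were seen, was 1.01 to 22.2 and 23.4 to 37.1. None of the 6 genes passed the adjusted test.

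Cd207, which encodes langerin of Langerhans and some dendritic cells, was 0 at the lowest, 3.04 at the median and 76.8 at the highest at 20 M. At 26 M it was 307 (c620), 88.7 (c2293), 18.3 (c3667), 5.58 (c3668) and 34.4 (c3775). The high libraries c620, c2293 and c1315 are among those richest in hepatocyte RNA, but c3055, richer than c620, held 9.50. The groups overlapped. The log2 difference was 3.21 ± 1.17, and 4.44 ± 1.35 in the 9 libraries (limma adjusted p = 1.00).

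For 9 of the 25 top genes, among them the 4 described here, the highest value was in c3668, the library with most brain RNA. Pax6, a transcription factor of the neural and eye lineage, was 0 to 16.4 at 20 M, with 11.7 in c3054 and the highest value in c1300, and reached 38.8 in c3667 and 58.6 in c3668, with 32.7 in c3775, 6.34 in c2293 and 4.56 in c620. Ralgds, an exchange factor for Ral GTPases, was 56.0 in c3054 and at most 10.0 in the other libraries of 20 M, against 51.2 in c3667, 82.9 in c3668 and 26.5, 18.2 and 9.50 in c3775, c620 and c2293. Mapk11, a p38 kinase, was 20.0 in c3054, 16.0 in c3667 and 52.2 in c3668, with 16.8 in c3775. B630019K06Rik was 39.0 in c3054, 57.1 in c3667 and 142 in c3668, with 51.2 in c3775. The order of c3054, c3667 and c3775 differed from gene to gene. The brain list was at 0.438% of the reads in c3054, 0.523% in c3667 and 1.24% in c3668 against at most 0.179% elsewhere. Over the 12 libraries and without these 3, the log2 differences were 2.76 and 2.26 for Pax6 and 2.63 and 2.46 for Ralgds. They were 2.53 and 2.49 for Mapk11 and 2.99 and 2.57 for B630019K06Rik. All 4 genes also kept their sign with the kidney and brain lists as covariates, and the cause of these differences was not tested.

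Among the other top genes lower at 26 M, Zfp30 (a zinc finger protein), Etfbkmt (a mitochondrial lysine methyltransferase), Bcs1l (an assembly factor of respiratory complex III), Mavs (the adaptor of cytosolic RNA sensing), Scara5 (a ferritin receptor), Amn1 and Gm47465 differed by -1.30, -1.66, -1.23, -1.64, -1.64, -2.37 and -2.01 on the log2 scale. Amn1 was 647 to 5904 at 20 M, and at 26 M it was 4548 in c620 but 187 to 1476 in the 4 other mice. Mavs was 194 to 1875 at 20 M, and at 26 M it was 59.4 in c3668 and 83.1 in c3667. The lowest values of Amn1, Mavs and Etfbkmt at 26 M were those of c3668, with c3667 or c2293 next, and each gene overlapped between the ages. The highest values of Zfp30, Amn1, Etfbkmt and Mavs were those of c1300, the library with most Malat1.

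Among those higher at 26 M, Dck (deoxycytidine kinase, of the nucleoside salvage pathway) was 32.8 to 137 at 20 M and 83.3 to 283 at 26 M. Marcksl1 (an actin-binding relative of MARCKS) was 21.6 to 273 and 148 to 440, and Rap2b (a small GTPase) 23.7 to 202 and 45.6 to 389. Plekho2, Aimp2, Gm9776, A130014A01Rik and Particl were at most 65.0 normalized counts in the libraries of 20 M, and 2, 4, 3, 2 and 2 of their 7 values there, in that order, were 0. All of these genes overlapped between the ages.

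**Figure D4:**
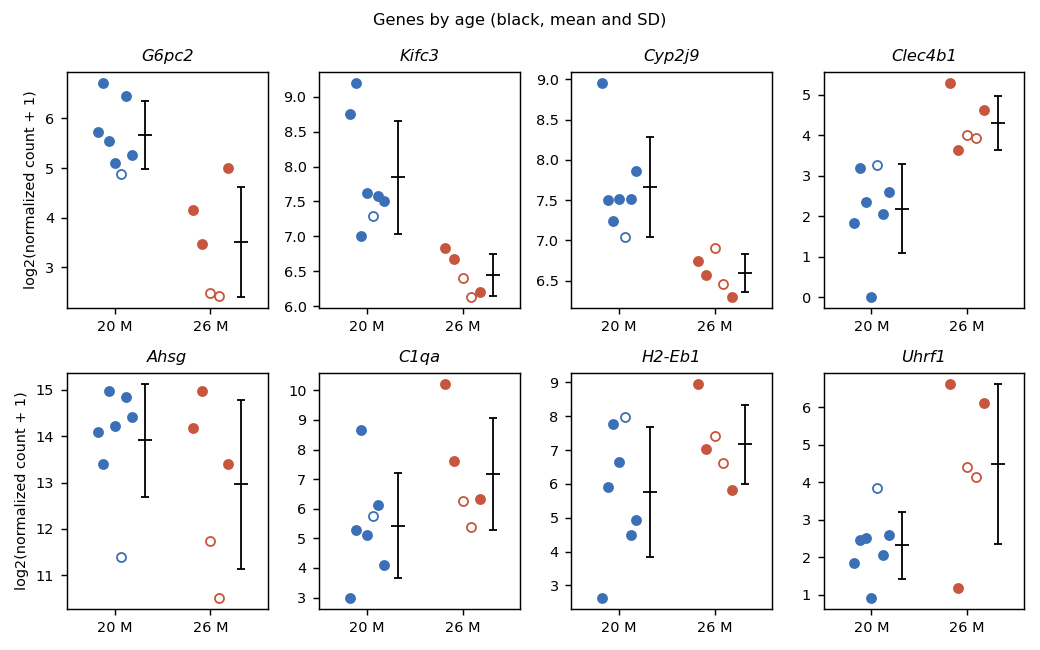
Values of 8 genes as log2(normalized count + 1) by age, with 1 point per mouse, the mean with SD in black, and open points for the 3 libraries with more kidney and brain than hepatocyte reads. Kifc3, Cyp2j9 and Clec4b1 do not overlap between the ages, G6pc2 overlaps through c3775 and Uhrf1 through c2293, and Ahsg, C1qa and H2-Eb1 overlap widely.

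Most genes of the hepatocyte, plasma protein and acute phase lists had lower values at 26 M over the 12 libraries and higher values over the 9, with 0 members past the adjusted test in each list. The lists share members and are not separate results. Alb, Apoa1 and Ttr are in the hepatocyte and plasma protein lists, Cp in the plasma protein and acute phase lists, and Fgb in all of them. Of all genes tested, 57.8% had a log2 difference above 0 over the 12 libraries. For the hepatocyte identity list 17 of 19 tested genes were lower at 26 M, with a median log2 difference of -0.28 beside 0.12 for all genes, whereas 18 of 19 were higher without the 3 libraries, with a median of 0.47. Of the plasma protein genes 53 of 57 were lower (median -0.50) and 47 of 57 higher in the 9 libraries (median 0.35). Of the acute phase genes 29 of 33 were lower (median -0.60) and 24 of 33 higher in the 9 libraries (0.29). The 3 libraries left out are 2 of 5 mice of 26 M and 1 of 7 of 20 M. They were chosen for kidney and brain reads above their hepatocyte reads, which in c3667 were 1.81% against 1.80%. The turn of the hepatocyte list over the 9 libraries thus follows in part from this choice. By hepatocyte reads alone the 3 lowest are c3668, c3054 and c1300, of which 2 are of 20 M.

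Cp, the copper-carrying ferroxidase ceruloplasmin, differed by -1.32 ± 0.95 on the log2 scale and by -0.29 without the 3 libraries. Ahsg, the carrier protein fetuin-A, differed by -0.95 ± 0.85 and by -0.14.

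Of the 42 lists, that of fatty acid synthesis held the most genes with lower values at an unadjusted p of at most 0.05. Of 29 tested fatty acid synthesis genes, 22 were lower at 26 M (median log2 difference -0.27) and 4 of 29 (13.8%, beside 0.441% of all genes lower) had an unadjusted p of at most 0.05, among them Lpin1, Acaca and Aacs, named after their values were seen. The median was -0.05 in the 9 libraries, where none of the 4 had an unadjusted p of at most 0.05.

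Acaca, acetyl-CoA carboxylase and the committed step of fatty acid synthesis, was 524 at the lowest, 1645 at the median and 4804 at the highest at 20 M. At 26 M it was 1214 (c620), 987 (c2293), 266 (c3667), 285 (c3668) and 1026 (c3775), with c3667 and c3668 below the range of 20 M and the others inside it. The 2 highest values of both Acaca and Lpin1 at 20 M were those of c1300 and c1312, the libraries with most Malat1 and the lowest share of short transcripts, and the part of these libraries in the differences was not tested. The log2 difference of Acaca was -1.35 ± 0.57, and -0.83 in the 9 libraries. Lpin1, a phosphatidate phosphatase that is also a clock output, was 839 ± 364 and 437 ± 101, a log2 difference of -0.86 ± 0.35, and -0.81 in the 9 libraries. Aacs, acetoacetyl-CoA synthetase, differed by -0.80 ± 0.38 and by -0.85. Scd1, the stearoyl-CoA desaturase and the member with the highest level, differed by -0.15 ± 1.04, and Elovl5, a fatty acid elongase, by 0.49 ± 0.64.

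Most other metabolic lists had negative medians over the 12 libraries and medians nearer to 0 or positive over the 9. In bile acid synthesis and transport 26 of 30 genes were lower (median -0.48), among them the nuclear receptor Nr5a2 at -1.30 ± 0.71, and the median was -0.03 in the 9 libraries. Of cytochrome P450 and phase II genes 47 of 69 were lower (median -0.34), with Cyp2c38 at -1.94 ± 1.01, and 47 of 69 were higher in the 9 libraries. Gluconeogenesis and glycogen had a median of -0.27 and -0.08 in the 9, cholesterol synthesis -0.14 and 0.11, fatty acid oxidation -0.14 and 0.14, and urea cycle and amino acid breakdown -0.30 and 0.15. The oxidative phosphorylation genes of the nucleus were higher for 57 of 74, with a median of 0.23 and of 0.30 in the 9. The 13 genes encoded in the mitochondrion are listed at 0 in all 12 libraries, as are all 37 rows of that genome, and gave no value.

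Zonation and sex-biased genes held 0 members at an unadjusted p of at most 0.05. Of pericentral genes 11 of 21 were higher (median 0.01) and of periportal genes 6 of 25 (median -0.34), and in the 9 libraries 13 and 19 were higher. Male-biased hepatic genes had a median of 0.12 and female-biased ones of -0.26, with 0.52 and -0.62 in the 9 libraries. Elovl3, a male-biased fatty acid elongase, ranged from 4.39 to 1630 normalized counts at 20 M, and at 26 M it was 240 (c620), 2577 (c2293), 491 (c3667), 115 (c3668) and 130 (c3775). Cyp2b9, a female-biased cytochrome P450, was 28.2 to 2798 at 20 M, and at 26 M it was 2282 in c3775 but 11.6 to 72.2 in the 4 other mice. Clock genes were lower for 17 of 26 (median -0.10), with Lpin1 and Alas1 (the first enzyme of haem synthesis) lower at an unadjusted p of at most 0.05 (7.69% of the list, beside 0.441% of all genes lower), and Nr1d1, the repressor REV-ERB alpha, at 1.71 ± 1.02.

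**Figure D5:**
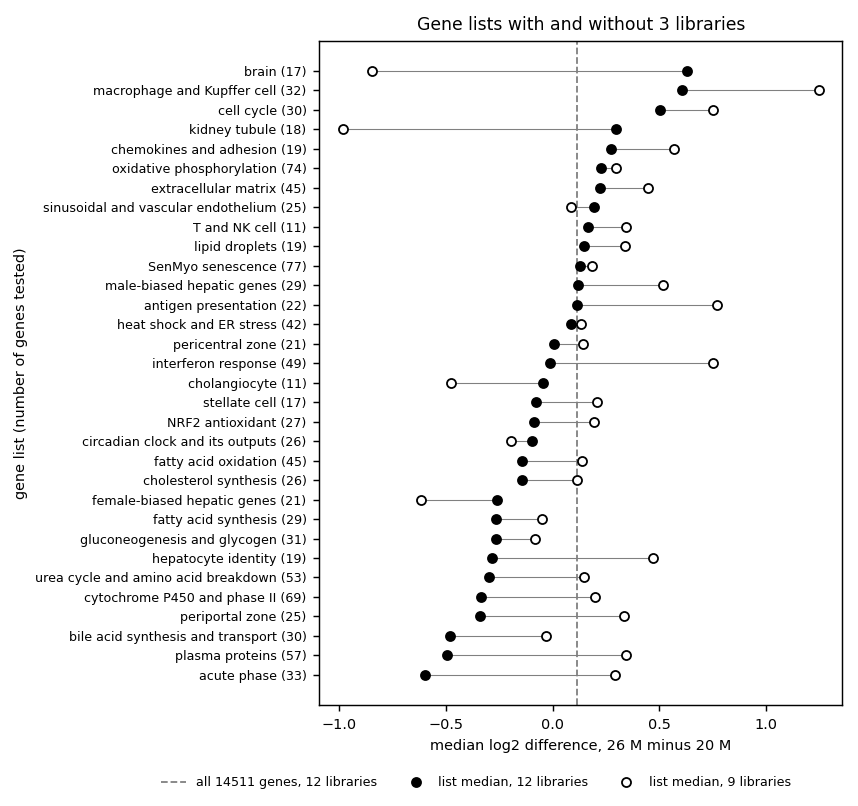
Median log2 difference, 26 M minus 20 M, of the 32 gene lists with at least 10 tested genes, over all 12 libraries (filled) and over the 9 libraries left without c3054, c3667 and c3668 (open), with the number of genes tested in brackets and the median of all genes as a dashed line. The hepatocyte, plasma protein and acute phase lists cross 0 to the right when the 3 libraries are left out, the kidney and brain lists cross to the left, and the macrophage list moves from 0.61 to 1.25. The 3 libraries were chosen by their reads on the hepatocyte, kidney and brain lists.

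Macrophage and Kupffer cell genes were higher for 24 of 32 genes at 26 M, with a median log2 difference of 0.61, and for 30 of 32 genes in the 9 libraries, with a median of 1.25. At an unadjusted p of at most 0.05 there were 2 members (6.25%, beside 0.538% of all genes higher), Fcer1g and Ctss, named after their values were seen, and 0 passed the adjusted test. The list took 0.0563% to 0.148% of the reads at 20 M, with a median of 0.0637%. At 26 M it took 0.374% (c620), 0.0834% (c2293), 0.0625% (c3667), 0.0543% (c3668) and 0.122% (c3775). The library of c620 stood above all others, and without it the median of the list was -0.09.

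C1qa, a subunit of complement C1q made by tissue macrophages (chromosome 4, 136895916 to 136898844), was 6.90 at the lowest, 37.7 at the median and 407 at the highest at 20 M. At 26 M it was 1197 (c620), 193 (c2293), 75.8 (c3667), 40.2 (c3668) and 79.5 (c3775). Each 26 M library was above the 20 M median, and c1315 of 20 M was above 4 of the 5. For C1qa the log2 difference was 1.73 ± 0.93, and 2.68 in the 9 libraries (limma adjusted p = 1.00). Fcer1g, the signalling chain of Fc receptors, was 138 ± 79.0 (SD, n = 7) at 20 M and 473 ± 455 (SD, n = 5) at 26 M, a log2 difference of 1.31 ± 0.60, and 1.95 in the 9 libraries. Ctss, the lysosomal protease cathepsin S, differed by 1.17 ± 0.54 and by 1.66. Msr1, a scavenger receptor, differed by -0.86 ± 0.78 and by 0.34, and Cd9, a tetraspanin also made by other cells, by 0.24 ± 0.35.

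In the antigen presentation and interferon response lists more genes had higher values in the 9 libraries than in the 12. Of antigen presentation genes 13 of 22 were higher (median 0.11), and 20 of 22 in the 9 libraries (0.77). Its median was -0.15 without c620 and 0.52 without c3668, and in set A, a grouping of the mice by their heart libraries, it was -0.07. The MHC class II gene H2-Eb1 was 5.18 to 253 normalized counts at 20 M, with a median of 59.3. At 26 M it was 497 (c620), 130 (c2293), 169 (c3667), 97.2 (c3668) and 55.6 (c3775), a log2 difference of 1.41 ± 0.85. H2-Aa, the other member at an unadjusted p of at most 0.05 beside Ctss (9.09% of the list, beside 0.538% of all genes higher), was 225 ± 167 (SD, n = 7) and 566 ± 484 (SD, n = 5), a log2 difference of 1.28 ± 0.56, and 1.67 in the 9 libraries. Of interferon response genes 24 of 49 were higher (median -0.01), and 43 of 49 in the 9 (0.75), where Ifit3b differed by 3.38 against 2.45 ± 1.13 in the 12 libraries. The interferon median was -0.39 without c620, 0.38 without c3668 and -0.11 within set A.

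T and NK cell genes were higher for 9 of 11 (median 0.16), chemokine and adhesion genes for 13 of 19 (0.27) and plasma and B cell genes for 6 of 9 (0.14), and in the 9 libraries the medians were 0.35, 0.57 and -0.07. Of these, Cx3cl1 (a chemokine also made by neurons) was 735 in c3667 and 1464 in c3668, and Thy1 (a surface protein of T cells and neurons) 439 in c3667, and c3667 and c3668 are the libraries with most brain RNA. Without the 3 libraries Cx3cl1 differed by 0.59 in place of 1.64, and Thy1 by 0.50 in place of 1.52. Igha, the constant region of IgA, was 22.4 to 85.5 at 20 M and 5.30 to 50.2 at 26 M, a log2 difference of -1.49 ± 0.67, and -2.16 in the 9 libraries.

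Cell cycle genes were higher for 25 of 30 genes, with a median log2 difference of 0.50, and the median was 0.75 in the 9 libraries. Uhrf1, which maintains DNA methylation through replication, was 0.878 to 13.4 normalized counts at 20 M, with a median of 4.49. At 26 M it was 97.7 (c620), 1.27 (c2293), 20.1 (c3667), 16.7 (c3668) and 68.0 (c3775), so that 4 of 5 were above every library of 20 M. The log2 difference was 2.17 ± 0.92 (limma adjusted p = 0.994). Tyms, thymidylate synthase, differed by -0.86 ± 0.65, and Hmgb2, the member with the highest level, by 0.37 ± 0.54. Without c620 the median of the list was 0.21.

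Senescence markers did not pass the test. Cdkn1a, which encodes p21, was 93.3 at the median at 20 M (15.8 to 401). At 26 M it was 143 (c620), 80.5 (c2293), 69.4 (c3667), 103 (c3668) and 174 (c3775), all inside the 20 M range, with a log2 difference of 0.48 ± 0.68 and a 95% interval from -0.97 to 1.93. Cdkn2a, which encodes p16, was 0 to 25.1 at 20 M, and at 26 M it was 4.56, 6.34, 3.65, 12.4 and 1.77 in the same order of mice, too low to be tested. Of the SenMyo genes, a published senescence list that the study scored on these samples, 77 of 118 were tested and 41 of 77 were higher, with a median of 0.13 beside 0.12 for all genes. Mmp12, a macrophage elastase, was its member with the most positive difference at 1.94 ± 0.94, and Ptges, a prostaglandin E synthase, that with the most negative at -1.53 ± 0.76.

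Stromal and vascular lists had medians between -0.08 and 0.22 over the 12 libraries. Sinusoidal and vascular endothelium genes were higher for 13 of 25 (median 0.20), with Plvap, a diaphragm protein of fenestrae, at 1.59 ± 1.04 and Gata4, the sinusoidal transcription factor that hepatocytes also express, at -1.33 ± 0.91. Stellate cell genes had a median of -0.08 and of 0.21 in the 9 libraries, cholangiocyte genes of -0.05 and -0.48 (1 of 11 higher), and extracellular matrix genes of 0.22 and 0.45. The lists for heat shock and ER stress, for NRF2 targets and for lipid droplets had medians of 0.09, -0.09 and 0.15, and of 0.13, 0.19 and 0.34 in the 9 libraries. The glutathione synthetase gene Gss was 29.8 to 189 at 20 M and 8.77 to 78.6 at 26 M, a log2 difference of -1.61 ± 0.68.

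Lists for cell types outside the liver were measured in each library. Of the 18 tested kidney genes 14 were higher at 26 M (median 0.30), but 1 of 18 in the 9 libraries (median -0.98). The brain genes were higher for 17 of 17 (median 0.63), but for 2 of 17 in the 9 libraries (-0.85). The libraries left out were chosen by their reads on these lists, so the lower values in the 9 libraries follow largely from the choice. Cardiomyocyte genes took 0.0806% of the reads in c3580, the library of the 12 whose column name carries the suffix b, and at most 0.0182% elsewhere, and testis germ cell, lung epithelium, skeletal muscle fibre, pancreas acinar, adipocyte and erythroid genes each took at most 0.0258% in every library.

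The mice were divided into 2 sets by the sign of the first principal component of their heart libraries. This division is not in the labels, and whether the sets are distinct groups was not tested. Of set A (3 mice of 20 M and 3 of 26 M) and set B (4 and 2), set A held 5 of the 6 libraries with most kidney and brain RNA, including c3054, c3667 and c3668. Within set A 0 genes passed the adjusted limma test (137 at an unadjusted p of at most 0.05), and within set B 0 (48). The median of the macrophage list was -0.20 within set A and 1.54 within set B, which holds c620, and the median of the cell cycle list was 0.36 and 0.72.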

How the data were processed

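The files hold a normalized signal, which the authors made per organ from gene counts with DESeq2 size factors. The authors trimmed single reads, aligned these to GRCm38 with HISAT2 2.1.0 and counted them on Ensembl genes. Each value was a whole multiple of 1 step per library (100% within 1e-06), which gave back whole reads, and 0 of 3228 library pairs were identical. PCR copies were counted as reads, so depth covers counting error only.

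Here, a gene was tested if its normalized count was 10 or more in 5 or more of the 12 liver libraries. Tests were made on log2(normalized count + 1), where fold changes of low genes are understated, with limma 3.58.1 in R 4.3.3 (trended prior, two-sided, Benjamini-Hochberg, 0.05, no covariates). Kap and Snap25 were tested by exact permutation. Alternatives used edgeR 4.0.16, DESeq2 1.42.0, other scalings, pseudocounts, filters and covariates, and each mouse left out. The 9-library fit, the sets of mice alone and the covariates of hepatocyte RNA and short transcripts were chosen after seeing the data. The members, lists and tests were chosen with earlier results of these data known. Named genes are the 25 with the smallest p, the member of each of the 42 lists with the most positive and most negative difference and the highest level, and 7 fixed genes. Transcript lengths came from GENCODE M21 (99.5% of genes matched) and positions from RefSeq (GRCm38.p6). The steps recovered large planted changes when tested on simulated data. The simulated libraries all came from the same mean profile, without the differences in tissue RNA seen here. That run thus checks the steps and not the power of this comparison. No library was left out, and some genes are not reported here.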

Additional observations from a re-analysis of the deposited data

Results flagged for a closer look

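In 76 groups of 5 or 7 mice, 3 held a mouse whose gap to the nearest other mouse was larger than Dixon's 95% critical value, and chance flags about 1 in 20 such groups. At 20 M, Cyp2j9 was 496 normalized counts in c1300, above 131 to 232 in the 6 other mice. Etfbkmt was 163 in c3054, below 712 to 1427 in the others, and c3054 is the 20 M library with more kidney and brain than hepatocyte reads. The macrophage and Kupffer cell list summed to 13855 normalized counts in c1315 at 20 M, above a median of 4567, and c1315 is the library with the highest share of hepatocyte reads.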

How the results depend on the processing

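The number of genes at a limma adjusted p of at most 0.05 was 0 in all 29 alternatives, those by edgeR and DESeq2 included. The number at an unadjusted p of at most 0.05, 142, was 56 to 545 with 1 mouse left out: 56, 61, 312 and 332 without c3667, c3668, c2293 and c620 of 26 M, and 545, 376, 82 and 65 without c3054, c1315, c1312 and c1300 of 20 M. It was 775 without a filter, 257 by DESeq2, 902 with all 45 liver libraries, 315 with kidney and brain lists as covariates, 425 with the hepatocyte list as well, 78 with log2 reads, 1496 with array weights and 48 in set B. Of these calls, the share higher at 26 M was 54.9% by limma, 39.2% by edgeR, 38.5% by DESeq2, 30.7% after quantile normalization and 90.6% without a filter. Quantile normalization also moved the median difference of all genes from 0.12 to 0.02. The 25 genes with the smallest p kept their sign in every alternative. Kap, 0.25, was -0.62 to 1.33 with 1 mouse left out, -0.0082 with kidney and brain covariates, -0.0071 with the hepatocyte list as well, -0.45 with the mouse set as a term, -1.07 without the 3 libraries and -1.58 in set B (exact permutation p = 0.476 and 0.4 in the last 2). Snap25, 0.56, was in the same order -0.42 to 1.61, -0.16, -0.16, -0.11, -1.13 and -1.81 (exact permutation p = 0.476 and 0.467). Alb, -0.39, was -1.18 to 0.29, 0.052, 0.0022, 0.19, 0.54 and 0.64. Apoa1, -0.28, was -0.82 to 0.34, 0.10, 0.058, 0.24, 0.54 and 0.53. Ttr, -0.10, was -0.64 to 0.43, 0.31, 0.28, 0.25, 0.53 and 0.59, and 0.23 after quantile normalization. Kap is itself in the kidney list, Snap25 in the brain list, and Alb, Apoa1 and Ttr in the hepatocyte list. A covariate that contains the gene takes up part of its difference, so those values cannot show how it depends on age. The 3 libraries were also chosen by these lists. Leaving out c3667 or c3668 alone reversed each of these 5 genes, and c1315 alone reversed all of them but Snap25. Cdkn1a, 0.48, was -0.11 by edgeR and -0.12 by DESeq2. For these reversals the cause was not tested. Of 32 lists with at least 10 tested genes, the median changed sign without the 3 libraries in 13, and it kept its sign in every alternative in 7 (bile acid synthesis and transport, fatty acid synthesis, gluconeogenesis and glycogen, chemokines and adhesion, extracellular matrix, cell cycle and SenMyo). The median of all genes was also above 0 in every alternative, from 0.01 in set B to 0.17 without a filter. A positive list median that kept its sign thus does not by itself set a list apart. No paired analysis was possible because the mice of the 2 ages differ. With 5 mice of 26 M and a median SE of 0.60 on the log2 scale, a missed threshold does not show that values did not differ, and mice, not reads, are the replicates behind each p.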

Other observations

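The library of c620 (26 M) also stood high for inflammatory genes. Saa3, an acute phase apolipoprotein induced in inflamed tissue, was 1034 normalized counts there and 4.11 to 49.4 in the 4 other mice of 26 M, against 0 to 86.8 at 20 M. Lcn2, the siderophore-binding lipocalin, was 4736 in c620 and 12.4 to 72.9 in the other mice of 26 M. At 20 M it was 2856 in c3580 and 19.9 to 218 elsewhere. The neutrophil list took 0.0726% of the reads in c620 and 0.0406% in c3580, and at most 0.00353% in the 10 other libraries. Lcn2 is in this list and made up most of it there, 4736 of 5276 normalized counts in c620 and 2856 of 2910 in c3580. These list shares thus largely restate Lcn2.

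The kidney libraries of the same 12 mice, which no comparison above uses beyond Kap, also held Snap25. It was 330 rpm in c3054, 264 in c2140, 136 in c3775, 72.6 in c3667 and 41.7 in c3580, and 8.64 to 14.9 in the 7 other mice. The 5 mice with higher Snap25 in kidney are among the 6 with most Kap in the liver library, and the sixth, c3668, had 8.64. Alb in these kidney libraries was 4.78 to 17.8 rpm, except in c3580, where it was 120.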
